A study of Homo sapiens with 8 samples.

Results

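The genes described here are 9 markers of the proneural glioma state and of neural stem cells, SOX2, SOX4, SOX9, OLIG2, NKX2-2, NES, GFAP, DCX and PROM1, out of 19483 genes named on the arrays. They were chosen by name, and every probe whose transcript belongs to one of them was taken, which gave 12 probes. Gene expression was profiled on 8 human Agilent arrays of 1 colour (Cy3) in U87, an established human glioblastoma line, transfected transiently with non-silencing siRNA (siControl) or with siRNA that targets RND3 (siRND3). At 24 h each treatment had 3 arrays, and at 48 h each had a single array. The labels give no other treatment. The study used a pair of siRNAs to RND3, whose assignment to arrays is not given, and nothing states that the replicates came from separate transfections, so the p-values measure the spread between these arrays, which may be technical.

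The markers come from the neural lineage. SOX2 and SOX9 are transcription factors that maintain neural stem and progenitor cells, and SOX4 acts in progenitors as they begin to differentiate. OLIG2 and NKX2-2 are transcription factors of the oligodendrocyte lineage, and OLIG2 is a hallmark of proneural glioma. NES (nestin) is the intermediate filament protein of neural progenitors, GFAP that of astrocytes, and DCX (doublecortin) a microtubule-binding protein of migrating young neurons. PROM1 (CD133) is a surface glycoprotein widely used to enrich glioma stem-like cells. U87 is a serum-grown line usually placed with the mesenchymal glioma state, in which several of these genes are low.

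The targeted gene checked the labels. The log2 level of RND3 on the siControl arrays at 24 h was 11.88, 11.91 and 11.90, and on the siRND3 arrays 10.12, 10.18 and 10.42. The groups did not overlap, and RND3 fell to 31.7% of the siControl level (log2 difference -1.66, SE 0.0952, limma adjusted p 0.000345). At 48 h RND3 was at 11.48 on the siControl array, against 9.84 on the siRND3 array. All levels given here are log2 processed signals after quantile normalisation, and adjusted p-values are from limma with Benjamini-Hochberg adjustment over 28759 probes. On the slide, row 1 held the siRND3 arrays and row 2 the siControl arrays, and column 4 held both 48 h arrays, so treatment cannot be told apart from row, nor time from column.

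A probe was tested when 1 of the 24 h groups had it well above background on each of its 3 arrays, which held for 6 of the 12 probes. These were the probes of SOX4, SOX9 and OLIG2, both probes of NES and 1 of the 2 probes of DCX. The other 6 probes were not well above background on any of the 8 arrays. They were the only probes of SOX2, NKX2-2 and PROM1, both probes of GFAP and the second probe of DCX. In the plot of the signals of all 12 probes, those of NES stood far above the dim probes on every array.

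**Figure D1:**
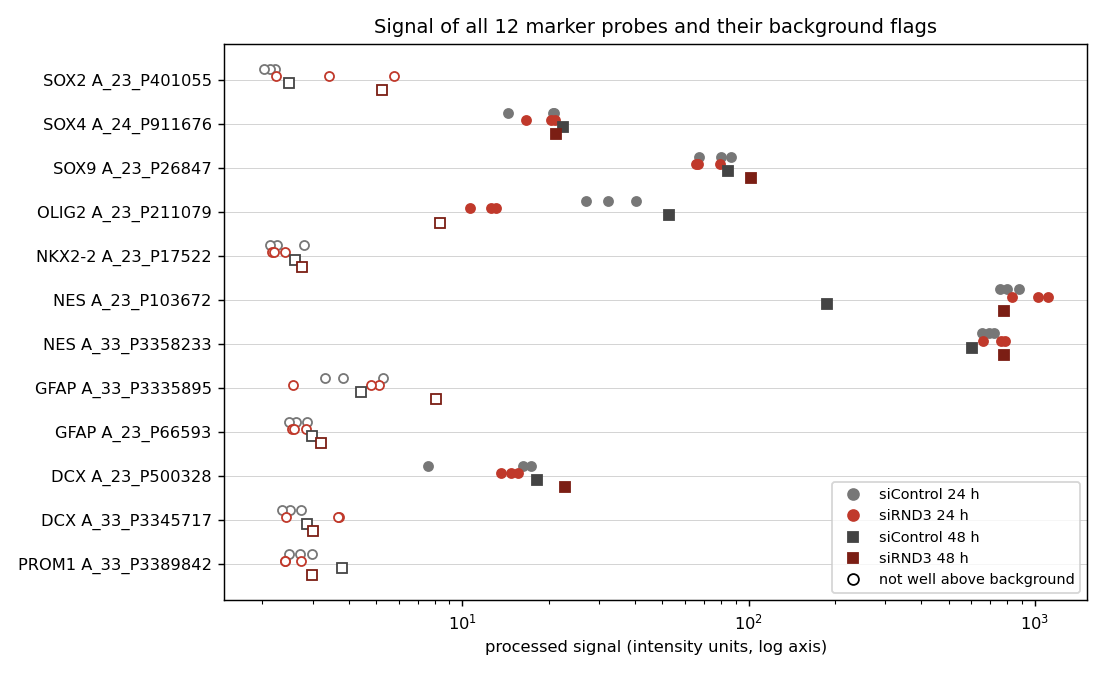
Processed signal (intensity units before normalisation, log axis) of each of the 12 marker probes on the 8 arrays, circles for 24 h and squares for 48 h, grey for siControl and red for siRND3. Open symbols were not well above background. The probes of SOX2, NKX2-2, PROM1 and GFAP are open on all 8 arrays, and that of OLIG2 is open only on the siRND3 array at 48 h.

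The dim markers included the most used stem cell markers. SOX2 (A_23_P401055) had processed signals of 2.22, 2.13 and 2.02 on the siControl arrays at 24 h, 2.23, 5.77 and 3.41 on the siRND3 arrays, 2.49 on the siControl array at 48 h and 5.25 on the siRND3 array at 48 h. All of these values were at background, so no direction is given for SOX2. PROM1 (A_33_P3389842) ranged from 2.40 to 3.78 and NKX2-2 (A_23_P17522) from 2.13 to 2.80 over the 8 arrays. GFAP ranged from 2.56 to 8.08 with 1 probe (A_33_P3335895) and from 2.48 to 3.19 with the other (A_23_P66593). The second DCX probe (A_33_P3345717) ranged from 2.34 to 3.72. A change of these probes was not detectable on these arrays, which does not show that the genes are silent.

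OLIG2 was the marker that moved most. Its level (A_23_P211079) was 4.96, 4.88 and 5.26 on the siControl arrays at 24 h and 3.47, 3.69 and 3.75 on the siRND3 arrays. The highest siRND3 array lay below the lowest siControl array, with means of 5.03 ± 0.20 (SD, n = 3) and 3.64 ± 0.15 (SD, n = 3). Groups did not overlap in 34.4% of the 28733 probes with 6 values, with siRND3 below in 14% and above in 20.3%. OLIG2 fell to 37.9% of the siControl level, a log2 difference of -1.40 (SE 0.13, 95% interval -1.71 to -1.09, limma adjusted p 0.00165). By exact permutation of the 6 arrays (two-sided) p was 0.1, the lowest value possible with 3 against 3. Among all probes tested 11.6% passed the threshold at 24 h, 5.27% higher and 6.38% lower in siRND3 cells. Of the 6 marker probes 2 passed, that of OLIG2 and 1 of NES. In RNA from whole cultures, fewer cells that express a gene and less of its RNA per cell cannot be told apart.

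OLIG2 is dim in U87, and this limits the size of the fold. Each siControl array had both spots of the probe marked as well above background, each siRND3 array at 24 h had 1 of 2, and the siRND3 array at 48 h had none. Before normalisation the single spots read between 26.2 and 41.4 on the siControl arrays at 24 h and between 8.75 and 16.8 on the siRND3 arrays. The difference passed the threshold under each of the 18 alternative settings tried, and its size ranged from -1.71 to -0.34. The smallest value came from the normexp background correction, whose added offset compresses dim signals, and the authors' deposited values, with no background subtraction, gave -0.60.

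At 48 h OLIG2 was at 5.64 on the siControl array, against 2.98 on the siRND3 array, which was not well above background. In siRND3 cells OLIG2 was thus 6.33-fold lower at 48 h, 1 array against 1. The fold uses the dim probe's own value, which was above the lowest signal marked well above background on that array. It is therefore the fitted size and not a lower limit. In the model of all 8 arrays the spread of the single 48 h arrays was taken to be that of the 24 h arrays. The fold holds for these normalised values, and the fitted difference at 48 h ranged from -2.68 to -0.72 over 14 alternatives. Normexp gave -0.72 and the deposited values gave -1.17. As 1 array minus 1 array, it could not change in alternatives that left out a 24 h array, changed the filter or weighted the arrays. The spots of the probe disagreed on the siControl array at 48 h, at 31.1 and 88.7 units before normalisation. The siControl level at 48 h was 0.60 above that at 24 h (adjusted p 0.131). The siRND3 level at 48 h differed from that at 24 h by -0.66 (log2), which missed the threshold here and under each of 14 alternatives. Over these it ranged from -0.74 to -0.13. The knockdown difference at 48 h minus that at 24 h was -1.26 (adjusted p 0.0626), which missed the threshold here and passed it under 3 of 14 alternative settings (adjusted p 0.0333 to 0.141).

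**Figure D2:**
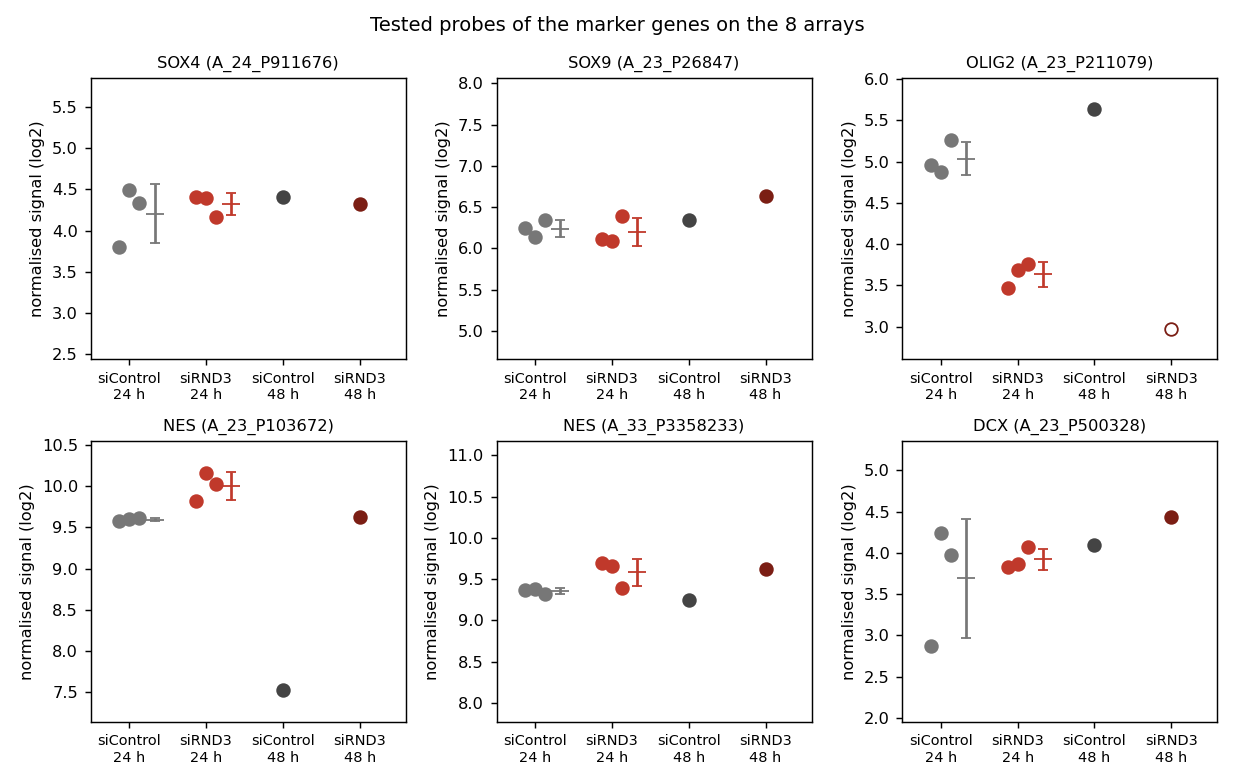
Normalised log2 signal of the 6 tested marker probes, 1 panel per probe and 1 point per array, with mean and SD beside the groups of 3 arrays. Each vertical axis spans the same number of log2 units. OLIG2 is lower on every siRND3 array, the first NES probe is low on the siControl array at 48 h alone, and SOX4, SOX9 and DCX overlap between groups at 24 h.

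NES, the neural progenitor filament, went the other way from OLIG2, by a small amount at 24 h. The first probe (A_23_P103672) read 9.57, 9.60 and 9.61 on the siControl arrays at 24 h and 9.82, 10.16 and 10.02 on the siRND3 arrays. The second probe (A_33_P3358233, 1 spot) read 9.37, 9.38 and 9.32 on the siControl arrays and 9.69, 9.66 and 9.39 on the siRND3 arrays. With both probes every siRND3 array lay above every siControl array, as they did for 20.3% of probes.

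NES rose to 133% of the siControl level with the first probe (log2 difference 0.41, SE 0.10, limma adjusted p 0.0472). With the second probe the difference was 0.23 (95% interval -0.01 to 0.46, limma adjusted p 0.196). The exact two-sided permutation test gave p = 0.1 for each probe. The call on the first probe was marginal. It passed under 8 of 18 alternative settings (adjusted p 0.00961 to 0.136), and it was lost when any 1 siControl array, siRND3 replicate 2 or siRND3 replicate 3 was left out. The mean of both probes differed by 0.32 (limma adjusted p 0.0268).

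At 48 h both NES probes disagreed. The first was at 7.53 on the siControl array, against 9.62 on the siRND3 array. The second was at 9.25 and 9.63. The siRND3 array read alike with both probes, and the gap lay in the siControl array, where both spots of the first probe were low (214 and 165 units, against 732 to 891 on the siControl arrays at 24 h).

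With the first probe the difference at 48 h was 2.10 (limma adjusted p 0.000797), and the siControl level at 48 h was 2.07 below that at 24 h (log2 difference -2.07, limma adjusted p 0.0101). With the second probe these differences were 0.37 (adjusted p 0.201) and -0.10 (adjusted p 0.702). The mean of both probes differed by 1.24 at 48 h (limma adjusted p 0.000767). The knockdown difference of the first probe grew by 1.69 from 24 h to 48 h (limma adjusted p 0.0233), and that of the second by 0.15 (adjusted p 0.773). The growth of the first lost its call when siControl replicate 1, 2 or 3 at 24 h was left out (adjusted p 0.0728, 0.0723 and 0.0752). Both comparisons rest on 1 siControl array at 48 h, and the cause of the disagreement between the probes was not tested. Over all probes 19% passed the threshold for knockdown at 48 h (9.77% higher and 9.19% lower) and 2.73% for the change of the knockdown difference with time (1.1% upward and 1.63% downward). For 48 h against 24 h, 3.56% passed in siControl cells (0.824% higher and 2.73% lower) and 9.03% in siRND3 cells (2.59% higher and 6.45% lower). The 6 marker probes gave 2, 1, 1 and 0 calls in these comparisons. OLIG2 and the first NES probe were the 2 called at 48 h, and the first NES probe alone made the other calls.

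**Figure D3:**
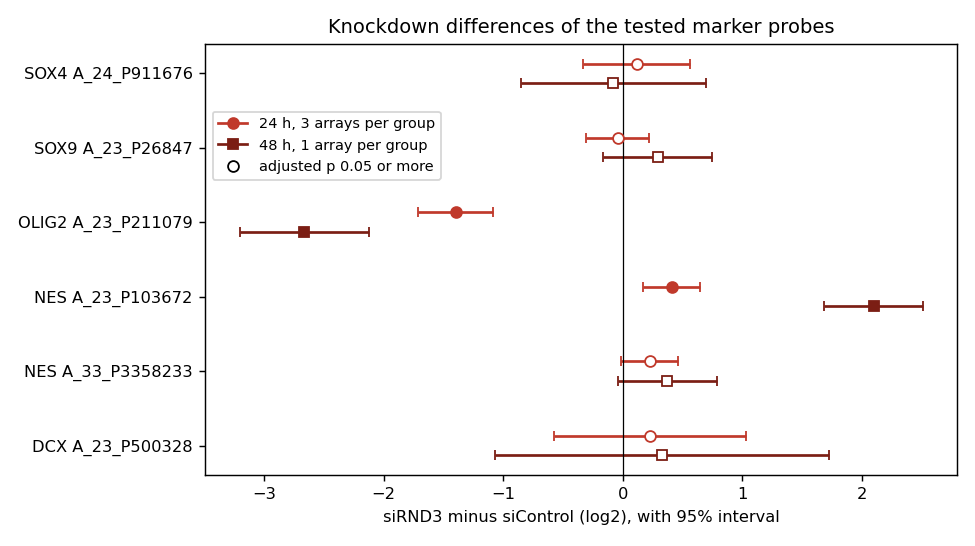
Log2 difference of siRND3 minus siControl for the 6 tested marker probes, with 95% intervals from limma, circles for 24 h and squares for 48 h, filled where the adjusted p was under 0.05. OLIG2 lies below 0 and the first NES probe above 0 at both times, and the intervals of the other 4 probes cross 0. The 48 h intervals borrow their spread from the arrays at 24 h.

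SOX9 and SOX4, both transcription factors of progenitors, did not pass the threshold at either time. SOX9 (A_23_P26847) read 6.25, 6.13 and 6.34 on the siControl arrays at 24 h and 6.12, 6.08 and 6.39 on the siRND3 arrays. These groups overlapped, and the difference was -0.04 with a 95% interval of -0.31 to 0.22 (limma adjusted p 0.837), so a change the size of that of OLIG2 lay outside the interval. At 48 h SOX9 was at 6.34 on the siControl array, against 6.63 on the siRND3 array (difference 0.29, adjusted p 0.379). From 24 h to 48 h in siRND3 cells SOX9 differed by 0.44 (adjusted p 0.136).

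SOX4 (A_24_P911676) read 3.80, 4.49 and 4.33 on the siControl arrays at 24 h and 4.41, 4.39 and 4.17 on the siRND3 arrays. The siControl arrays spread more widely than the siRND3 arrays and enclosed them. The difference was 0.12, with a 95% interval of -0.33 to 0.56 (limma adjusted p 0.735). At 48 h SOX4 was at 4.40 on the siControl array, against 4.32 on the siRND3 array (difference -0.08, adjusted p 0.925).

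DCX, the marker of young neurons, was measured less precisely. Its tested probe (A_23_P500328) read 2.88, 4.24 and 3.97 on the siControl arrays at 24 h and 3.83, 3.87 and 4.07 on the siRND3 arrays. Only 1 of 2 spots was well above background on siControl replicates 1 and 3 and on each siRND3 array at 24 h. On siControl replicate 1 the spots read 4.10 and 13.9 units before normalisation. Replicate 1 of siControl stood below every other array and set the sign of the difference, which was 0.23 with all arrays (95% interval -0.58 to 1.03, limma adjusted p 0.710) and -0.18 without that array. At 48 h DCX was at 4.10 on the siControl array, against 4.43 on the siRND3 array (difference 0.33, adjusted p 0.788). The interval at 24 h allows changes in either direction.

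To place OLIG2 and NES among other genes, the genes with the most similar profiles were found over the 8 arrays, each profile taken relative to its own siControl mean at 24 h. For OLIG2 these were PGM1, a phosphoglucomutase, RYBP, a Polycomb component, and FAM89A, among 14137 genes compared. PGM1 differed from OLIG2 by a root mean square of 0.152 log2 units, RYBP by 0.183 and FAM89A by 0.184, against a size of 1.15 for the OLIG2 profile itself. For the first NES probe they were SSX1 at 0.180, ZNF397 at 0.187 and ZNF664 at 0.223, against a size of 0.777. These shared with NES a low value on the siControl array at 48 h, at -1.93 for SSX1, -1.71 for ZNF397 and -2.22 for ZNF664. The first NES probe departs most on that array, so the shared low value follows from the choice by likeness. Likeness over 8 arrays of 4 groups is a description and carries no test.

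Other proneural genes were then read at 24 h, with 1 probe per gene. Of 16 such genes 7 were tested, 2 of them passed lower and none higher, with a median difference of 0.08, against 0.04 over all 14797 genes tested, of which 14.8% passed, 6.51% higher and 8.27% lower. PDGFRA, the platelet-derived growth factor receptor of oligodendrocyte progenitors, read 5.52, 5.45 and 5.62 on the siControl arrays and 4.77, 4.82 and 4.86 on the siRND3 arrays. At 24 h PDGFRA fell by 0.71 (log2, SE 0.0779, limma adjusted p 0.00307), and at 48 h by 1.54 (adjusted p 0.000955), and it kept its call under all 18 alternatives at 24 h. ERBB3, a neuregulin receptor, fell by 0.48 (adjusted p 0.0141), a call lost under 5 of 18 alternatives, among them those without siControl replicate 1 or 3 (adjusted p up to 0.145 over the 18). Another ERBB3 probe gave -0.41 (adjusted p 0.24) at 24 h and 0.72 (adjusted p 0.230) at 48 h, where the first gave -1.44 (adjusted p 0.00120). At 48 h the proneural list had 1 gene higher, TCF4, a basic helix-loop-helix factor (0.72, adjusted p 0.0292, lost without any 1 siControl array at 24 h), and 2 lower. The share over all genes tested at 48 h was 25.3%, 13.1% higher and 12.2% lower. Of the proneural genes 7 were not well above background on any array, OLIG1 among them.

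Other neural stem cell genes passed at 24 h at a share near that of all genes tested, 18.8% against 14.8%. Of 19 such genes 16 were tested at 24 h, 2 passed higher and 1 lower, with a median difference of -0.07. ID3, an inhibitor of basic helix-loop-helix factors, read 11.06, 11.03 and 11.13 on the siControl arrays and 11.73, 11.99 and 11.80 on the siRND3 arrays. ID3 rose by 0.76 (SE 0.0906, limma adjusted p 0.00417) at 24 h and by 2.48 (adjusted p 0.000405) at 48 h. MSI2, an RNA-binding protein of stem cells, rose by 0.58 (adjusted p 0.00420), although its other probe gave 0.15 (adjusted p 0.346). PAX6, a transcription factor of radial glia, fell by 0.92 (adjusted p 0.00117), although its other tested probe gave -0.23 (adjusted p 0.153). At 48 h both probes of MSI2 were higher (1.48 and 0.80) and both tested probes of PAX6 lower (-1.74 and -0.58), each past the threshold. Over all genes tested 25.3% passed at 48 h, 13.1% higher and 12.2% lower, and among the neural stem cell genes 4 passed higher and 2 lower.

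**Figure D4:**
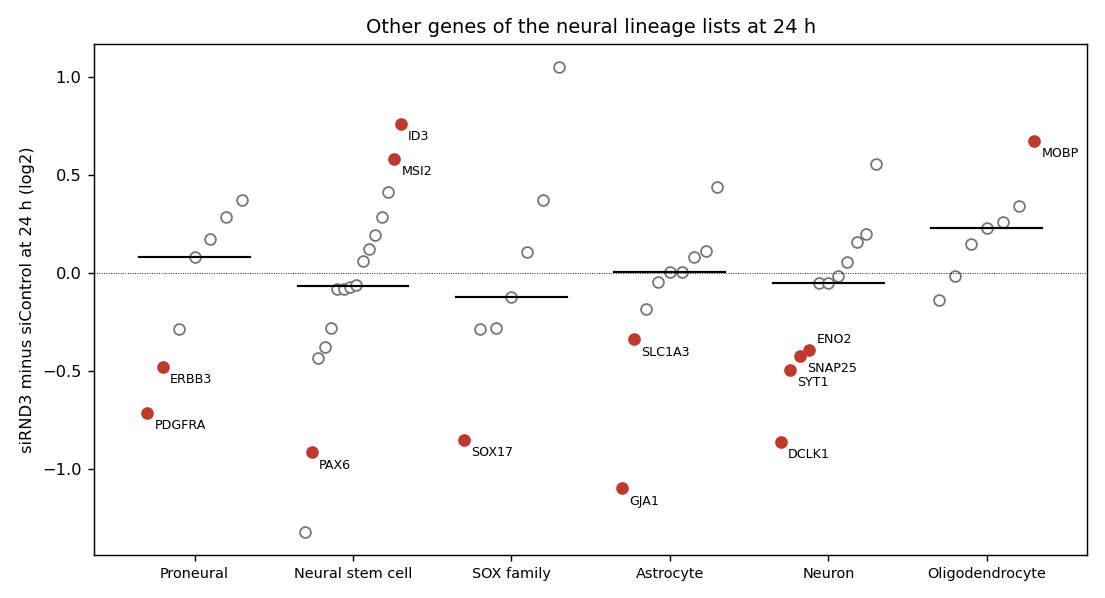
Log2 difference of siRND3 minus siControl at 24 h for the tested genes of 6 lists, 1 point per gene and 1 probe per gene, red and named where the limma adjusted p was under 0.05. Black lines are list medians, between -0.12 and 0.23. PDGFRA, PAX6, GJA1, DCLK1 and SOX17 lie lowest among the named genes, and ID3, MOBP and MSI2 lie above 0. MOBP was not well above background on the siControl arrays.

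In the SOX family beyond the 3 markers, 7 of 16 genes were tested and 1 passed, 14.3% against 14.8% of all genes tested. SOX17, a factor of endoderm and endothelium, was lower by 0.85 at 24 h (log2 difference -0.85, limma adjusted p 0.0260, lost under 5 of 18 alternatives, among them those without siControl replicate 1 or 3 or siRND3 replicate 2 or 3). At 48 h SOX17 was 4.87-fold lower, 1 array against 1. The siRND3 array was not well above background and was set at the lowest signal so marked, close to its own value. That fold too holds for these normalised values and is not a lower limit. The fitted difference of these single arrays ranged from -2.33 to -0.47 over 14 alternatives. The lists shared some genes, such as SOX3 and SOX8, and their medians at 24 h near 0 changed sign under some scalings, that of the SOX family from -0.12 to 0.08 with normexp and 0.09 with the deposited values.

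Markers of differentiated neural cells were read beside these genes. Over all genes tested 14.8% passed at 24 h, 6.51% higher and 8.27% lower. The share was 22.2% of the astrocyte, 36.4% of the neuron and 14.3% of the oligodendrocyte genes tested, in lists of few genes. The share of all genes at 48 h is given with the neural stem cell genes. Of 13 astrocyte genes 9 were tested and 2 passed, both lower. GJA1, the gap junction protein connexin 43, fell by 1.10 (SE 0.0837, limma adjusted p 0.000812), and SLC1A3, a glutamate transporter, by 0.34 (adjusted p 0.0323, lost under 7 of 18 alternatives, among them those leaving out any 1 array). Of 17 neuron genes 11 were tested and 4 passed, all lower, with differences of -0.86 for DCLK1 (a doublecortin-like kinase), -0.49 for SYT1, a calcium sensor of synaptic vesicles, -0.42 for SNAP25, a SNARE protein, and -0.39 for ENO2. The DCLK1 call was lost only with the mean of its probes (adjusted p 0.517), that of SYT1 under 8 of 18 alternatives, among them those without any 1 siControl array, siRND3 replicate 1 or siRND3 replicate 2, and that of SNAP25 under 4, among them those without any 1 siControl array. The ENO2 call was lost under 7 of 18 (adjusted p up to 0.101), which were the replicate block and each setting without 1 array. Without any 1 siControl array the neuron list held 1 call, lower. At 48 h it had 3 genes higher and 4 lower. The 3 higher were NEFM, a neurofilament subunit, at 2.63 (limma adjusted p 0.00194), MAP2, a dendritic microtubule-associated protein, at 0.89 (adjusted p 0.00804), and NCAM1, an adhesion molecule, at 0.79 (adjusted p 0.00890), with the other NCAM1 probes at 0.29 and 0.47, not past the threshold. At 24 h another DCLK1 probe gave 0.09 (adjusted p 0.737) and another SYT1 probe 0.10 (adjusted p 0.707). At 48 h these other probes went the opposite way to the probes counted as lower. They gave 0.98 for DCLK1, past the threshold upward, and 0.54 for SYT1, not past it, against -1.18 and -0.72. Different probes of DCLK1 were thus called in opposite directions, and its count as lower rests on its brightest probe. Of 9 oligodendrocyte genes 7 were tested and 1 passed. That was MOBP, which was well above background on 0 of 3 siControl arrays and 3 of 3 siRND3 arrays and so was tested only through the group where it was high. With the filter on all 6 arrays at 24 h, 6 oligodendrocyte genes were tested and 0 passed in limma, and no change is read from MOBP.

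Markers of cells that a U87 culture should not hold were read as a check. Over all genes tested 14.8% passed at 24 h, and these lists are short. CSF1R, the only gene called among 3 tested of 6 microglia genes, was lower by 0.35 (log2 difference -0.35, limma adjusted p 0.0295) at 24 h, and PECAM1, the only one among 4 tested of 5 endothelium genes, by 0.99 (log2 difference -0.99, limma adjusted p 0.0216), with its other tested probe at -0.58 (adjusted p 0.0640). Both calls were lost without any 1 siControl array, that of CSF1R also without siRND3 replicate 1 or 3 and that of PECAM1 without siRND3 replicate 2. In each of these 2 lists 5 genes had a probe, and 3 of them were well above background on all 8 arrays. CSF1R was 1 of these, with a mean level of 11.22 on the siControl arrays at 24 h. CX3CR1, P2RY12 and CLDN5 were not well above background on any array. The check therefore did not show these markers to be absent as a set, and the cause was not tested. CD44 and VIM, genes of the mesenchymal state, were well above background on all 8 arrays. CD44, a hyaluronan receptor, read 15.80, 15.79 and 15.76 on the siControl arrays at 24 h and 15.21, 15.10 and 15.31 on the siRND3 arrays. CD44 fell by 0.58 (limma adjusted p 0.00721) at 24 h, past the threshold under each of the 18 alternatives. At 48 h it fell by 2.12, with 1 array per group. VIM, the filament protein vimentin, differed by -0.08 (adjusted p 0.596) at 24 h and -0.18 (adjusted p 0.523) at 48 h. CDKN2A, known as deleted in U87, gave probes that disagreed, 1 well above background on 1 of 8 arrays (A_33_P3411628) and the other on all 8 (A_23_P43490), while its neighbours CDKN2B and MTAP, read after their values were seen, were not well above background on any array.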

How the data were processed

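Total RNA of U87 cells was labelled by the authors with a low-input amplification kit, and spots were quantified in Feature Extraction 10.7.3.1 (Agilent). Intensity in the deposited scanner output is linear. Its processed signal, per the file headers, is background-corrected within an array but not scaled between arrays. The authors also deposited log2 values, stated as quantile-normalised, which had the rank order of the spot medians and were an alternative here.

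Of 62976 spots, 4259 controls were left out. Log2 processed signals were quantile-normalised over the 8 arrays, outlier spots (0.364% to 0.530%) were removed, and spots of a probe were averaged (42405 probes, of which 25422 matched a gene in RefSeq, assembly GRCh38.p14). The arrays were designed on hg19, so no coordinates are given. A probe was well above background on an array when at least 50% of its spots were so marked (68.3% to 70.7% of probes per array). No spot was saturated. Probes that passed this on each of the 3 arrays of a 24 h group (28759) were tested with limma 3.58.1 in R 4.3.3, at a threshold of 0.05, on 6 arrays for 24 h and in a model with 4 groups for the other contrasts. The number of arrays limits the precision. The code was tested on simulated data.

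SAM (significance analysis of microarrays), the test named in the methods, was an alternative run over 20 assignments. The others were 75th percentile scaling, normexp (offset 50), the deposited values, normalisation over the arrays at 24 h, 2 other filters, array weights, the mean of a gene's probes, a replicate block, all arrays with treatment and time, leaving out each array at 24 h, and averaging spots before normalisation (added after seeing the data).

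A list gene was represented by its brightest probe by mean over the 24 h arrays. Named were RND3, every marker probe, up to 3 rises and 3 falls per list and in the SOX family past the threshold with groups that did not overlap, and the 3 nearest profiles of each called marker probe. ENO2, TCF4, NEFM, MAP2, NCAM1, OLIG1, CX3CR1, P2RY12, CLDN5 and the neighbours of CDKN2A fell outside this rule and were named after their values were seen. CD44, VIM and CDKN2A were checks of the line. The markers and lists were chosen with earlier results of these data known. A fold against a dim group sets the brighter group's mean against the higher of the dim probe's value and the lowest signal well above background, per array. It is not a lower limit.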

Additional observations from a re-analysis of the deposited data

Results flagged for a closer look

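A knockdown difference that changed between 24 h and 48 h by the limma test of the change itself was seen for the named probes below. Over all probes tested 2.73% passed that test, 1.1% upward and 1.63% downward. NEFM and MAP2 were named only after their values were seen, so the number of probes listed says nothing of the named genes as a set. For the first NES probe (A_23_P103672) the change was 1.69 on the log2 scale (adjusted p 0.0233), with the second NES probe at 0.15. ID3 changed by 1.72 (adjusted p 0.0186) and MSI2 by 0.90 (adjusted p 0.0347), both further upward at 48 h, with the other MSI2 probe at 0.65 (adjusted p 0.128). NEFM changed by 2.07 (adjusted p 0.0370) and MAP2 by 0.90 (adjusted p 0.0476). CD44 changed by -1.54 (adjusted p 0.0181), CSF1R by -1.37 (adjusted p 0.0190), ERBB3 by -0.96 (adjusted p 0.0375) and PECAM1 by -2.45 (adjusted p 0.0341), all further downward, with the other tested PECAM1 probe at -0.45 (adjusted p 0.527). With the mean of all ERBB3 probes the change turned to 0.22 (adjusted p 0.744). Each of the 9 calls was lost without siControl replicate 1, 2 or 3 at 24 h, with adjusted p from 0.0637 to 0.122 over these settings. ERBB3, MSI2, NEFM and MAP2 also lost it without any 1 siRND3 array at 24 h, and PECAM1 without siRND3 replicate 2 or 3. Each rests on 1 array per group at 48 h, and the causes were not tested.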

How the results depend on the processing

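OLIG2 kept its direction and call at 24 h under 18 alternatives. It also kept them at 48 h under 14, but each 48 h difference is 1 array minus 1 array. No setting left out a 48 h array. A 48 h difference could not change when a 24 h array was left out, the filter was changed or arrays were weighted. These 14 settings therefore say nothing of the spread between arrays at 48 h. The count of 2 marker probes called at 24 h became 1, OLIG2 alone, with 75th percentile scaling, no filter on dim probes, all 8 arrays with treatment and time, spots averaged before normalisation, and the replicate block (NES 0.41, adjusted p 0.0884). Leaving out 1 array gave 1 to 2 calls, with 2 only without siRND3 replicate 1. At 24 h the replicate number was also the slide column, which held 1 array of each treatment, so the block follows the slide layout. Deviations of the arrays with the same number correlated at 0.0020, -0.012 and 0.13. Whether the replicate numbers also pair the transfections is not stated. For the change of the knockdown difference with time, the count of 1 became 2 with 75th percentile scaling, the filter on all 6 arrays at 24 h and the mean of a gene's probes, by the addition of OLIG2, and leaving out 1 array gave 0 to 1.

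Signs that turned belonged to differences not past the threshold, and the causes were not tested. At 24 h SOX4 became -0.028 (normexp) and -0.078 (deposited values) and SOX9 0.040 (all 8 arrays). Leaving out 1 array at 24 h gave SOX4 -0.089 to 0.26, DCX -0.18 to 0.50 and SOX9 -0.14 to 0.012, with SOX4 and DCX negative only without siControl replicate 1, and SOX9 positive without siControl replicate 3 (0.0067) or siRND3 replicate 2 (0.012). The change with time of the DCX difference became -0.014 (75th percentile) and -0.087 (mean of probes), and with 1 array left out ranged from -0.17 to 0.51, and that of SOX4 from -0.33 to 0.011. Between times in siControl cells, leaving out 1 array gave DCX -0.0025 to 0.68 and SOX4 -0.0094 to 0.34. In siRND3 cells SOX4 became -0.0091 (normexp), -0.012 (deposited values), -0.0027 (spots averaged first) and -0.00049 (array weights), and ranged from -0.077 to 0.044 with 1 array left out, and the second NES probe became -0.17 (mean of probes) and ranged from -0.052 to 0.097. The dim probes of SOX2, NKX2-2, PROM1, GFAP and DCX limit what can be said of them.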
